A study of Mus musculus with 80 samples.

Results

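The effect of leptin was measured in AgRP neurons labelled as knockouts of the clock gene Bmal1, 12 of the 80 libraries of the series, chosen by their titles. The mice carried a floxed Bmal1 gene (Arntl) and a Cre recombinase driven by AgRP (genotype AGRP-Cre;BMAL1fx), and received either leptin or PBS (phosphate-buffered saline, the labelled control). Cells were collected at ZT2 or ZT14, that is 2 or 14 h after lights on. There were 3 libraries for each of the 4 combinations of treatment and time, so that 6 leptin libraries faced 6 PBS libraries. For comparison, 13 libraries of floxed controls without Cre (WT;BMAL1fx) had PBS at ZT2 (4 libraries), leptin at ZT2 (3), PBS at ZT14 (3) or leptin at ZT14 (3). All groups carried the floxed Bmal1 allele. The labels describe the cells as AgRP+ neurons of the arcuate hypothalamus (ARH). The protocol names sorting of GFP-positive cells from NPY-GFP mice and also an immunoprecipitation of tagged ribosomes, without saying which applied to which library. The deposited column names of all 25 libraries used begin with NPY.LEPTIN.SAMPLES. Libraries titled RiboTag belong to other parts of the series. The sources used here give no age, leptin dose, route or interval before collection. They do not state that the numbered collections of a group came from different mice, so the p-values cover only how far libraries of a group differ, and this may be technical variation.

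AgRP neurons of the arcuate nucleus drive feeding and release AgRP, NPY and GABA. Leptin, a hormone of fat cells, binds its receptor Lepr and acts through the kinase JAK2 and the transcription factor STAT3, and SOCS proteins made in response feed back to dampen the signal. BMAL1 is the transcription factor that, with CLOCK, drives the circadian clock.

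Values are normalised read counts as deposited, and a difference is the mean of log2(value + 1) with leptin minus that with PBS, averaged over the 2 times. Of 13942 genes tested with limma, 57 rose with leptin in the knockouts at a Benjamini-Hochberg adjusted p under 0.05, which is 0.409% of the genes tested. Another 10 fell, which is 0.0717%. An unadjusted p under 0.05 was reached by 1178 genes, and the median difference over all genes was -1e-04. The 57 genes that rose included the feedback inhibitors Socs2 and Cish, the interferon-induced gene Rtp4 and the phosphodiesterase gene Pde4b. Also among them were Steap4, Arid5a, Rnf122, Gadd45g and Bcl3, which were on a list of STAT3 and leptin targets. The 10 genes that fell included the receptor genes Gpr6, Oprk1 and Gpr75. The spread for these calls came from all 25 libraries of the leptin experiment. In a fit of the 12 knockout libraries alone, with time as a term, 96.6% of the calls were higher. Of the 10 genes that fell, only Gpr6 passed in that fit (adjusted p = 0.0087 by limma). Transcripts of Agrp, Npy, Lepr and Stat3 did not pass the test.

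**Figure D1:**
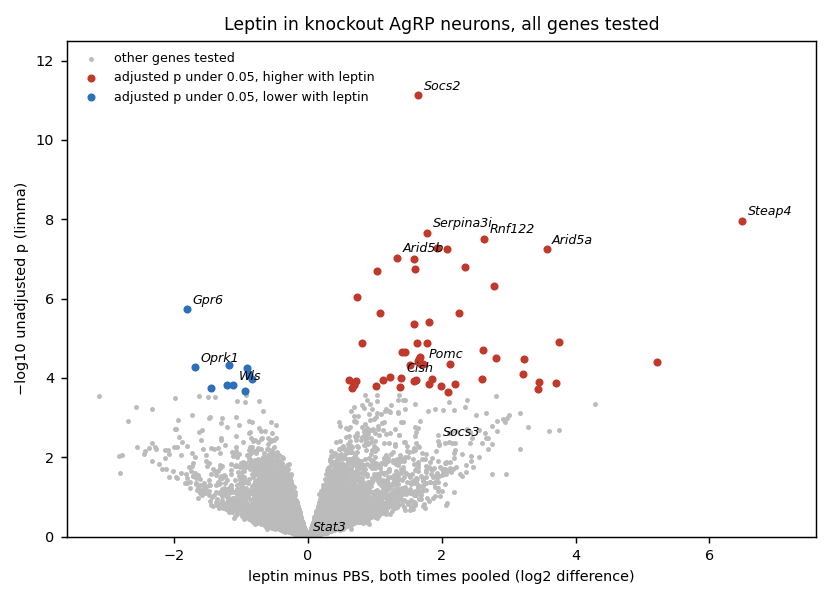
Difference between leptin and PBS in knockout AgRP neurons (x axis, log2, both times pooled, 6 libraries against 6) and −log10 of the unadjusted limma p (y axis) for 13942 genes. The 57 genes that rose (red) reach a difference of 6.49 at Steap4, and the 10 that fell (blue) reach -1.81 at Gpr6.

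Short promoter stretches are shown here because they hold the palindrome TTCNNNGAA, the letters that STAT proteins are known to bind. The search covered RefSeq windows from 250 bases before to 50 after each start on build GRCm38.p6, and the motif reads the same on both strands. A window was matched for 39 of the 57 genes that rose, and 12 of these (30.8%) held the motif. It was in the windows of 922 of 10980 genes tested (8.4%) and in those of 0 of 8 genes that fell. The match is a description of letters and says nothing of binding. The stretches belong to the 4 genes of smallest p among those that rose with at least 60 bases around the motif outside annotated exons. Each is written 5′ to 3′ on the gene's strand with the motif in capitals.
Steap4: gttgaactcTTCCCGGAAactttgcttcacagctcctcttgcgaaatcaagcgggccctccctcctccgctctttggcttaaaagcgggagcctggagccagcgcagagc
Serpina3i: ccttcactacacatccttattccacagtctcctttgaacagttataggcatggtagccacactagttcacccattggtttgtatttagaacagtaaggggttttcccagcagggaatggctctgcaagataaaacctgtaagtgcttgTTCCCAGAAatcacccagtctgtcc
Arid5b: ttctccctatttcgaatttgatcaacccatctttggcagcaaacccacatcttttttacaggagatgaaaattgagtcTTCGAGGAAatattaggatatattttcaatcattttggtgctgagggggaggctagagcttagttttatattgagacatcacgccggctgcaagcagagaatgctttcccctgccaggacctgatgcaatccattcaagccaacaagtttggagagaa
Pde4b: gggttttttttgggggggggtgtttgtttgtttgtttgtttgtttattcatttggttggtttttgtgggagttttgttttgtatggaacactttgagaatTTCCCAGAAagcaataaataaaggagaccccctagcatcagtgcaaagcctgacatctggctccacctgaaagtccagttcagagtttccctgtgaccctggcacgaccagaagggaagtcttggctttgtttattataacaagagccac
The Steap4 stretch is chr5:7960347-7960456 on the plus strand, and its motif begins 116 bases before the start of transcription. The Serpina3i stretch is chr12:104262872-104263044 on the plus strand, with the motif 102 bases before an internal start of the gene. The Arid5b stretch is chr10:68278741-68278976 on the minus strand, with the motif 172 bases before an internal start of the gene. The Pde4b stretch is chr4:102569810-102570059 on the plus strand, with the motif 150 bases before an internal start.

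The libraries held 9.91 to 18.14 M recovered reads. The PBS libraries had a median of 14.67 M and the leptin libraries 11.9 M, and a fit with depth as a covariate called 68 genes, 58 of them among the 67 above. Hsd11b2 was at 2092 to 3749 in the 12 knockout libraries and at 0 to 19.74 in the 13 controls, so its values followed the genotype labels. Hsd11b2 (chromosome 8, 105518746 to 105523988) lies near Agrp (chromosome 8, 105566695 to 105579845), the gene that drives the Cre. Why Hsd11b2 differed was not tested, and its values do not measure the loss of Bmal1. Arntl, the targeted gene, was at 107.8 to 526.3 in the knockouts and at 223.1 to 1211 in the controls, so the groups overlapped. A count over the whole gene includes exons that the deletion may leave, and why the groups overlapped was not tested. Agrp and Npy, which define the cells, were abundant in all 12 libraries, but their levels varied. The 7 AgRP neuron markers summed to 157800 to 1317000 with PBS and 365700 to 662200 with leptin. That sum was lowest in PBS ZT14 collection 1 and highest in PBS ZT2 collection 4. The 3 libraries of lowest mean correlation with the other 11 were leptin ZT2 collection 3 (0.925), PBS ZT2 collection 4 (0.928) and PBS ZT14 collection 1 (0.933). Without all 3 of them 32 genes were called, 27 of them among the 67, and without the 2 PBS libraries alone 27 were called, 25 of them among the 67. Leaving out 1 library gave 36 to 86 genes, and the count moved by over 1.5 times without PBS ZT2 collection 3 (39) or 4 (39), PBS ZT14 collection 2 (40), or leptin ZT14 collection 1 (41), 2 (42) or 3 (36).

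Results are given from the receptor onward. None of the 27 members tested of a list of leptin receptor and JAK-STAT genes passed, and the list's median difference was 0.04 beside a median of 0 over all genes. Without the 2 PBS libraries named above, or all 3 libraries, 1 member passed, Stat4. Jak2 passed in 4 of 26 alternatives, among them DESeq2 (adjusted p = 0.00598), and Stat2 in 2, among them DESeq2 (0.0466). Lepr, the leptin receptor, was at 1227, 2239 and 3298 with PBS at ZT2, and at 295.5, 2439 and 2390 with PBS at ZT14. The leptin libraries had 838.1, 1180 and 1447 at ZT2, and at 1774, 1502 and 1640 at ZT14. The lowest and highest values were both in PBS libraries, and the difference was -0.22 (95% interval -1.02 to 0.58, adjusted p = 0.9 by limma). Stat3, the main transcription factor of the pathway, had a median of 6273 with PBS and 6390 with leptin, with a difference of 0 (95% interval -0.46 to 0.46). Jak2, the kinase bound to the receptor, ranged from 48.69 to 111.6 with PBS and from 75.84 to 368.6 with leptin, with a difference of 1.24 ± 0.307 (SE, adjusted p = 0.074 by limma). Stat2 had a difference of 1.04 ± 0.294 (adjusted p = 0.151), Stat4 1.36 ± 0.408 (0.193) and the phosphatase gene Ptpn1 0.63 ± 0.228 (0.37). The largest difference of the list, 2.75 at Osmr, rested on values of at most 10.77 with PBS and 69.19 with leptin, and did not pass (adjusted p = 0.248).

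Of the feedback inhibitors, 2 of 8 SOCS family genes rose and none fell, and all 8 differences were above 0, with a median of 1.12. Without the 2 PBS libraries of low correlation 2 passed, Socs2 and Socs4. Without all 3 libraries of lowest correlation 1 passed, Socs2. Socs2 (chromosome 10, 95383903 to 95417321, GRCm38.p6), an inhibitor of cytokine and growth hormone signalling, was at 648.7, 672.8 and 511 with PBS at ZT2, and at 458.4, 393.9 and 565.6 with PBS at ZT14. Leptin libraries were at 1464, 1874 and 1646 at ZT2, and at 1786, 1525 and 1753 at ZT14. Every leptin library lay above every PBS library at both times. The median was 3.16 times as high with leptin, and the difference was 1.65 ± 0.131 (SE, adjusted p = 1.05e-07 by limma), the smallest p of the table. Cish (chromosome 9, 107296659 to 107302784), a STAT5-induced member of the family, ranged from 139.8 to 314.5 with PBS (median 191.4) and from 360.7 to 887.9 with leptin (median 522.1). The 2 groups of Cish values did not overlap, and the difference was 1.39 ± 0.297 (adjusted p = 0.0318 by limma), a call lost in 12 of 26 alternative fits.

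Socs3 (chromosome 11, 117966079 to 117970336), the inhibitor best known from leptin signalling, did not pass the test. It was at 220.4, 16.8 and 15.93 with PBS at ZT2, and at 182.5, 109.9 and 82.87 with PBS at ZT14. After leptin Socs3 was at 226.6, 553.2 and 63.99 at ZT2, and at 644.2, 262.1 and 264.7 at ZT14. Of the 6 leptin libraries, 5 lay above all PBS libraries, but values within a group spread more than 10-fold for PBS. The difference was 1.94 ± 0.609 (95% interval 0.69 to 3.2, adjusted p = 0.23 by limma). Without PBS ZT2 collection 2, the library with the highest PBS value, Socs3 passed. Socs1 had a difference of 2.27 ± 0.955 (adjusted p = 0.478) and Socs4 of 0.86 ± 0.254 (0.178). Socs4 passed in 3 of 26 alternatives. Socs5, Socs6 and Socs7 had differences of 0.43, 0.27 and 0.02.

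Of 40 tested STAT3 and leptin target genes, 9 rose and none fell, and 34 differences (85%) were above 0, against 50% of all genes. The list was chosen with earlier results of these data known, so these shares are not independent support. The list's median was 0.74, and between 0.58 and 0.83 with other scalings and count models. Without the 2 PBS libraries named above 5 members passed, and without all 3 libraries also 5. Steap4, a metalloreductase gene, was at 13.26, 0 and 0 with PBS at ZT2, and at 0, 3.109 and 0 with PBS at ZT14. After leptin Steap4 was at 10.4, 426.5 and 61.21 at ZT2, and at 845.2, 533.5 and 227.4 at ZT14. It was near 0 in the PBS libraries, and 5 of 6 leptin libraries lay above all of them. Its difference of 6.49 ± 0.756 (adjusted p = 7.55e-05 by limma) depends on the pseudocount, since 4 of 6 PBS libraries were at 0.

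Arid5a (chromosome 1, 36307733 to 36324037), an RNA-binding protein gene, was at 125.9, 91.45 and 35.84 with PBS at ZT2, and at 101.8, 253.9 and 214.4 with PBS at ZT14. After leptin Arid5a was at 746.8, 2876 and 392.3 at ZT2, and at 2908, 1816 and 1516 at ZT14. The groups did not overlap, the median was 14.6 times as high, and the difference was 3.57 ± 0.456 (adjusted p = 0.000113 by limma). Rnf122, a ubiquitin ligase gene, ranged from 50.39 to 137.5 with PBS (median 96.88) and from 252 to 1279 with leptin (median 738.8). Its groups did not overlap either, and the difference was 2.64 ± 0.326 (adjusted p = 0.000107).

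Gadd45g, a growth arrest and DNA damage gene, had a median of 1439 with PBS (860.1 to 1855) and 6854 with leptin (3099 to 8950), without overlap. Its difference was 2.08 ± 0.266 (adjusted p = 0.000113 by limma). Serpina3i, a serine protease inhibitor gene, had a median of 718.2 with PBS (390.2 to 965.4) and 2225 with leptin (1660 to 2979), and a difference of 1.78 ± 0.216 (0.000103). Its neighbour Serpina3h rose by 1.46 ± 0.276 (0.0123). Serpina3n, far more abundant at 18550 to 55030, did not pass (0.46 ± 0.188, adjusted p = 0.456). The genes of this cluster are close copies, so reads may be split between them.

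Cd24a, a surface glycoprotein gene, was at 393.8 to 2704 with PBS and 3607 to 4587 with leptin, without overlap (difference 1.63 ± 0.298, adjusted p = 0.0081 by limma). Bcl3, an NF-kappaB cofactor gene, was at 47.78 to 90.56 with PBS and 129.9 to 202.2 with leptin, again without overlap. Its difference was 1.13 ± 0.244 (0.0327), a call lost in 13 of 26 alternatives. Atf3, a stress-induced transcription factor gene that was also on the immediate early gene list, rose by 2.20 ± 0.487 (0.0362), a call lost in 16 of 26. The members Junb (0.85 ± 0.307), Mcl1 (0.81 ± 0.23), Myc (0.78 ± 0.287), Timp1 (2.05 ± 0.772) and Asb4 (0.49 ± 0.152) had adjusted p of 0.367, 0.157, 0.381, 0.394 and 0.227. Apart from Socs3 and Osmr, given above, the remaining tested members of this list ran from -1.55 at Il6ra to 1.28 at Bcl6.

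**Figure D2:**
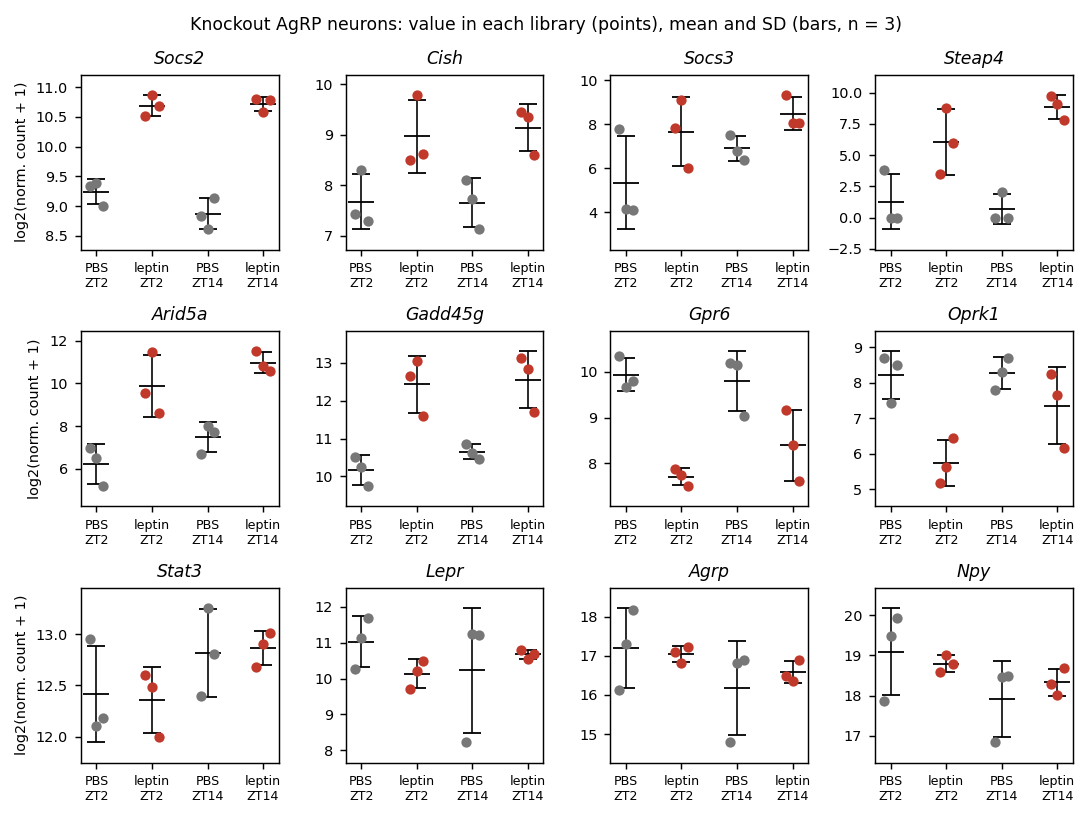
Each panel plots log2(normalised count + 1) of 1 gene (y axis) in the 12 knockout libraries by treatment and time (x axis), with points for libraries and bars for the mean and SD of 3. Socs2, Cish, Arid5a and Gadd45g lie higher with leptin in every library, Gpr6 and Oprk1 lie lower in most, and the PBS values of Agrp, Npy and Lepr spread more widely than the leptin values.

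Outside the lists above, genes with the largest rise at a mean log2 value of at least 5 included Pde4b and Rdh10. Pde4b, a phosphodiesterase that degrades cyclic AMP, was at 44.57 to 144.6 with PBS (median 96.66) and 429.8 to 852.9 with leptin (median 563.5), with no overlap. Its difference was 2.78 ± 0.405 (adjusted p = 0.000525 by limma). Elovl1, which elongates very long fatty acids, rose from a median of 227 to 858.3 (1.92 ± 0.245, 0.000113). Rdh10, a retinol dehydrogenase, rose from 105 to 619.9 (2.25 ± 0.363, 0.00195), and lost its call without the 3 libraries of lowest correlation. The transcription regulator Arid5b moved from a median of 330.6 (308 to 440.2) to 891.9 (791.5 to 1027), without overlap (1.34 ± 0.176, 0.000152). It shares its domain type with Arid5a.

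Among receptor genes that rose were Gpr151 (3.43 ± 0.777, adjusted p = 0.0415 by limma) and Gpr146 (3.21 ± 0.675, 0.0281). Gpr151 ranged from 13.27 to 822.5 with PBS and from 433.5 to 2125 with leptin, so its groups overlapped, and its call was lost in 17 of 26 alternatives. Gpr146 was at 0 to 29 with PBS and 44.52 to 150.3 with leptin, and lost its call in 11 of 26. The kinase gene Ripk1 rose by 2.13 ± 0.425 (0.0178), Adam9, a membrane protease gene, by 1.85 ± 0.397 (0.0318), the homeobox gene Pbx3 by 1.81 ± 0.399 (0.0362) and Rbm46, an RNA-binding protein gene, by 1.99 ± 0.442 (0.0367). These 4 calls were lost in 7, 11, 14 and 15 of 26 alternatives.

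In all, 35 of the 57 genes that rose had every leptin library above every PBS library, and 3 of the 10 that fell had every one below. Over all genes tested such separation was found for 0.524% upward and 0.158% downward. The called genes were chosen for their differences in these same libraries, so their separation follows in part from the choice. The call of 18 of the 67 genes was kept in all alternatives run. These were Socs2, Steap4, Serpina3i, Rnf122, Elovl1, Gadd45g, Arid5a, Arid5b, Nanos1, Rtp4, Afap1l1, Rnd3, Pde4b, Nop58, Sowahc, Plekho1, Fam196a and, among those that fell, Gpr6. The genes here that lie outside the naming rule were chosen after their values were seen.

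Genes that fell were led by Gpr6 (chromosome 10, 41069977 to 41072290), a constitutively active receptor coupled to cyclic AMP production. Gpr6 was at 1302, 810 and 889.3 with PBS at ZT2, and at 1165, 1139 and 524.2 with PBS at ZT14. After leptin Gpr6 was at 232.4, 214.1 and 180.8 at ZT2, and at 574.7, 336.6 and 196.1 at ZT14. Only the leptin ZT14 value of 574.7 reached into the PBS range. Gpr6 fell by 1.81 on the log2 scale (SE 0.288, adjusted p = 0.0017 by limma).

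Oprk1 (chromosome 1, 5588450 to 5606134), the kappa opioid receptor gene, was at 171.7 to 412.6 with PBS (median 336.7) and 34.68 to 302.7 with leptin (median 78.01). Oprk1 fell by 1.69 (SE 0.343, adjusted p = 0.0199 by limma), and 4 of 6 leptin libraries lay below all PBS libraries. Cdo1, cysteine dioxygenase, fell by 1.17 (0.0178), the protocadherin gene Pcdh20 by 1.21 (0.0362) and the hair keratin-associated gene Krtap17-1 by 1.45 (0.0389). The zinc finger gene Zfp61 fell by 0.90 (0.0202), the matrix protein gene Mfap2 by 0.87 (0.0285) and the receptor gene Gpr75 by 0.83 (0.0318), and in these 3 the groups did not overlap. Paqr7, a membrane progestin receptor gene, fell by 0.93 (0.0446). Over these 10 genes the median difference was -2.01 at ZT2 and -0.78 at ZT14, and 6 were called at ZT2 and 0 at ZT14. Pcdh20 was at 4737, 5340 and 6449 with PBS and 860.1, 1631 and 1054 with leptin at ZT2. At ZT14 Pcdh20 was at 3098, 5531 and 3389 with PBS and 4046, 3876 and 2650 with leptin, so its groups overlapped there (differences of -2.26 at ZT2 and -0.16 at ZT14, and an adjusted p = 0.403 by limma for the difference between times). Calls other than Gpr6 were lost in 7 to 18 of 26 alternatives.

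The next 5 lower genes in order of p did not pass, namely Dpf1 (-0.93, adjusted p = 0.0541 by limma), Htr5a (-1.39, 0.0566), Spata2l (-1.98, 0.0569), Rbm24 (-1.06, 0.0625) and Lrsam1 (-0.73, 0.0626).

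Of 22 genes known for AgRP neurons (their peptides, GABA synthesis and transport genes, receptors and transcription factors), none passed. Agrp, the melanocortin antagonist that defines the cells, was at 71930, 160400 and 297400 with PBS at ZT2, and at 28240, 116300 and 122500 with PBS at ZT14. With leptin it was at 141000, 116500 and 154500 at ZT2, and at 91460, 83910 and 121800 at ZT14. All 6 leptin values fell between the lowest and highest PBS values, and the difference was 0.13 (95% interval -0.54 to 0.8, adjusted p = 0.937 by limma). Npy, the co-released orexigenic peptide, had a median of 363200 with PBS and 407800 with leptin, with a difference of 0.06 (95% interval -0.59 to 0.7). Asb4 (0.49 ± 0.152, 0.227), Mc3r (0.66 ± 0.225, 0.306) and Npy1r (-0.59, 0.634) had the smallest p of that list. These intervals do not show that the levels were alike.

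Of 31 tested genes for neuropeptide and hormone receptors, 1 fell, Oprk1, and none rose. The list's median was -0.35, and between -0.21 and -0.44 over leave-outs and other scalings. Without the 2 PBS libraries of low correlation no member passed, and without all 3 libraries 1 did, Oprk1 (adjusted p = 0.0459 by limma). In the core clock list 1 of 19 passed, Bhlhe40, a repressor of CLOCK and BMAL1 targets. Bhlhe40 was at 463.1, 161.4 and 38.49 with PBS at ZT2 and at 1497, 313 and 350.1 with PBS at ZT14, so 1 PBS library was high. With leptin it was at 871.7, 2891 and 460.5 at ZT2 and at 1671, 1341 and 1126 at ZT14. The difference was 2.09 ± 0.48 (adjusted p = 0.0467 by limma), a call lost in 16 of 26 alternatives. Arntl itself had a difference of -0.41 ± 0.298 (0.74).

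In the interferon response list 1 of 39 rose, Rtp4, a chaperone of G protein-coupled receptors that interferon induces. Rtp4 was at 47.78 to 112.9 with PBS (median 72.18) and 217.7 to 719.2 with leptin (median 403.6), without overlap (2.34 ± 0.318, adjusted p = 0.00022 by limma). Of the list's differences 69.2% were above 0. Of 22 immediate early genes only Atf3 passed, and the list's median was 0.02. Without the libraries of low correlation none passed. None passed among 15 MAPK feedback, 15 glucocorticoid response, 29 insulin and FoxO, 26 energy sensing and 16 peptide processing genes. The glucocorticoid list had the lowest median of these, -0.37, and its smallest p were at the glucocorticoid receptor gene Nr3c1 (-0.53, adjusted p = 0.178 by limma), Sgk1 (0.88, 0.206) and Errfi1 (-0.59, 0.209).

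None passed among 32 potassium channel genes, 33 calcium, sodium, HCN and TRP channel genes, 32 GABA and glutamate receptor genes and 30 genes for GABA synthesis and vesicle release. Their medians were -0.11, -0.10, -0.10 and -0.11. The 25 genes of ER folding had a median of -0.12, 19 cytosolic heat shock genes -0.05 and 30 autophagy and lysosome genes -0.08, with none called. Of 27 tested cholesterol and fatty acid synthesis genes none passed, and 5 differences (18.5%) were above 0, with a median of -0.29. Of these, Elovl6 (-0.37) and Scd2 (-0.48) had adjusted p of 0.474 and 0.478 by limma.

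For the cytosolic ribosomal proteins 69 of 74 differences were above 0 with a median of 0.13, yet none passed. That median fell to 0.05 with depth as a covariate and to -0.01 in 1 leave-out. The 67 oxidative phosphorylation genes had a median of 0.09 and the 31 proteasome genes 0.11, with none called. Depth differed between the treatments as given above.

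**Figure D3:**
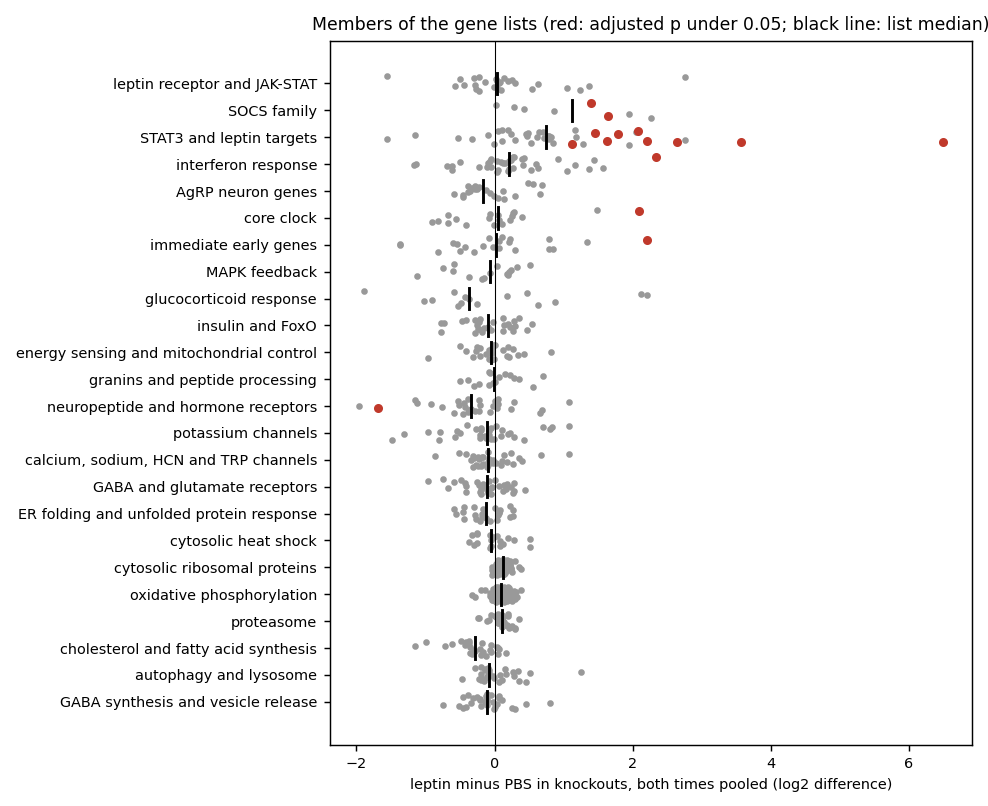
Each dot is a gene of a list (y axis) at its difference between leptin and PBS in knockouts (x axis, log2, both times pooled). Red dots pass an adjusted p under 0.05 and black lines are list medians. Red dots sit in the SOCS, STAT3 target, interferon, clock and immediate early lists to the right and in the receptor list to the left, and the SOCS median of 1.12 is the highest.

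Markers of other cells were set beside these results. Pomc, the precursor of melanocortin peptides and a marker of the neighbouring POMC neurons, was at 327.2, 219.3 and 584 with PBS at ZT2 and at 214.1, 263.3 and 453.7 at ZT14. With leptin it was at 687.9, 2081 and 484.1 at ZT2 and at 1875, 971.3 and 1130 at ZT14. The rise was 1.73 ± 0.345 (adjusted p = 0.0178 by limma), with 5 of 6 leptin libraries above all PBS libraries. It was lost in 5 of 26 alternatives. The summed level of the 6 genes listed for POMC neurons was 2157 to 4869 with PBS and 4891 to 6565 with leptin, which did not overlap. Most of this sum came from Cartpt (1362 to 4011 with PBS, 2173 to 5474 with leptin) and Tbx3 (489.8 to 1241, 579.6 to 869.4). Cartpt and Tbx3 each overlapped between treatments, and neither passed. Within this list, Prdm12 and Nhlh2 were at 0 in all 12 libraries. Nr5a1, which was on the list but does not mark POMC neurons, was at no more than 1.036. Whether more POMC cells or more Pomc per cell gave this rise cannot be told apart in such bulk libraries, and its part in the other results was not tested.

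Sox9, an astrocyte transcription factor gene, rose from a median of 7.309 to 60.5 (2.62 ± 0.491, adjusted p = 0.0113 by limma). The summed level of the 10 astrocyte markers was 1772 to 4216 with PBS and 1515 to 4120 with leptin, most of it from Aldoc. The median difference of the 10 markers was 1.33, and Sox9 was the 1 that passed. Aqp4, Slc1a3 and Gja1 were at 0 in every PBS library and at 0 to 24.06, 0 to 20.18 and 0 to 64.96 with leptin. Gfap was at 1.036 to 8.424 with PBS and 2.312 to 49.32 with leptin. Tanycyte and ependymal markers summed to 703.4 to 1809 and 1309 to 2411, mostly from Vim (524.4 to 1594 and 1044 to 2057). The median difference of the 6 tested members was 0.73, and none passed. Ccdc153 was at 0 in every PBS library and at 0 to 86.62 with leptin, and Tmem212 was at 0 to 2.485 and 0 to 57.74. The highest leptin values of Ccdc153, Tmem212, Aqp4, Gja1 and Gfap were all in leptin ZT14 collection 3. Oligodendrocyte markers summed to 1297 to 1959 and 989.1 to 1712, with a median difference of -0.2. Endothelial and mural markers summed to 20.72 to 68.76 and 50.69 to 83.82, with a median difference of 0.71. Markers of other hypothalamic neurons summed to 4343 to 27230 with PBS and 9094 to 44700 with leptin, mostly from Sst. The median difference of the 10 tested members of that list was 0.73, and none passed. The 10 microglia and macrophage markers summed to 8.424 to 451.7 with PBS and 172.5 to 305 with leptin, mostly from Cd68 (0 to 439.5 and 132.4 to 291.9). Mrc1 was at 0 to 11.6 with PBS and 13.11 to 62.56 with leptin, which did not overlap (2.61 ± 0.83, adjusted p = 0.242 by limma). C1qa, C1qb and C1qc were at 0 in all 12 libraries, and the median difference of the 2 tested members was 1.81. The precursor markers Olig1 and Olig2 were at 0 in all 12 libraries, and that list summed to at most 1.327 with PBS and 6.936 with leptin. Their part in the results was not tested.

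**Figure D4:**
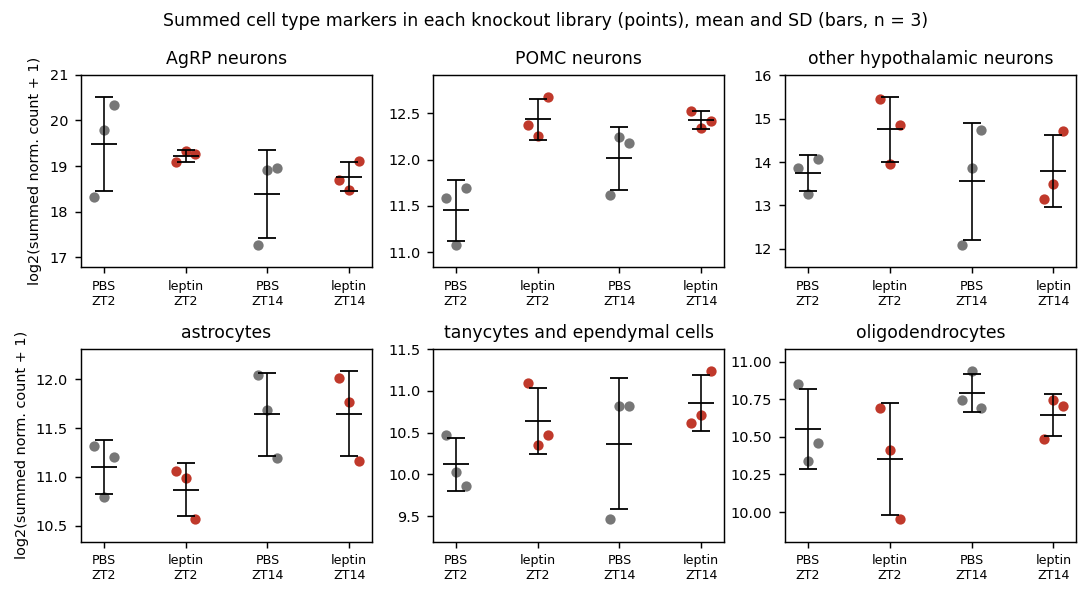
Each panel plots the summed markers of 1 cell type (y axis, log2 of summed normalised counts + 1) in the 12 knockout libraries by treatment and time (x axis), with points for libraries and bars for the mean and SD of 3. The POMC sums are 2157 to 4869 with PBS and 4891 to 6565 with leptin, mostly from Cartpt and Tbx3, which each overlap between treatments. The sums of the AgRP, astrocyte and oligodendrocyte lists overlap between treatments, but the astrocyte sum is mostly Aldoc and the median difference of its 10 members is 1.33.

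At ZT2 alone 40 genes rose (0.287%) and 19 fell (0.136%), 3 libraries against 3. At ZT14 12 rose (0.0861%) and 0 fell (0%). At ZT14 732 genes had an unadjusted p under 0.05, and edgeR called 11 genes, none lower. The same fit gave both times 1 estimate of spread for each gene, so the calls at the 2 times are not independent. Of the 12 genes at ZT14, 7 were also called at ZT2 and 11 had the same sign there. Of the 59 at ZT2, 48 had the same sign at ZT14. Over all genes tested, 52% of differences were above 0 at ZT2 and 48.2% at ZT14. The ZT2 count rested on PBS ZT2 collection 4, without which 6 genes were called. It was 106 without PBS ZT2 collection 2, 19 without PBS ZT2 collection 3 or leptin ZT2 collection 3, and 18 without leptin ZT2 collection 1. At ZT14 the count was 2 without leptin ZT14 collection 1. With all 3 libraries of lowest correlation left out, 0 genes were called at ZT2 and 11 at ZT14.

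At a mean log2 value of at least 5, the largest rises at ZT2 were at Arid5a (3.65), Pde4b (3.07), Rtp4 (2.85), Prkar2b (2.59) and Rdh10 (2.57). Among the genes that fell at ZT2, the neuromedin B receptor gene Nmbr was at 159.9, 624.3 and 584 with PBS and at 6.936, 94.38 and 18.08 with leptin (-4.00, adjusted p = 0.0353 by limma). Spata2l (-3.37), Myrip (-2.56) and Wls (-2.50) also fell at that time. At ZT14 the largest rises at a mean log2 value of at least 5 were at Arid5a (3.49), Rnf122 (3.04), Cd24a (2.29), Serpina3i (1.98) and Gadd45g (1.90). Hcn3 (-1.43, 0.0709), Mfap2 (-1.24, 0.0709), Chd9 (-0.84), Dpf1 (-1.25) and Rbm24 (-1.37) were lowest in p among lower genes at ZT14, and did not pass.

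The test of the difference between times found 0 genes (0%) with limma, and 723 had an unadjusted p under 0.05. edgeR found 0, DESeq2 18 and limma with library weights 27. The smallest p was at Wls, which encodes the carrier that exports Wnt proteins. Wls was at 597.3, 606.6 and 662.3 with PBS and 107.5, 125 and 95.99 with leptin at ZT2. At ZT14 it was at 416.3, 597 and 480.6 with PBS and 706.3, 667.9 and 437.9 with leptin. The leptin effect was 2.77 higher at ZT14 (95% interval 1.74 to 3.79, adjusted p = 0.146 by limma), so the pooled difference of -1.12 averages a fall at ZT2 and 0.26 at ZT14. Hcn3, a pacemaker channel gene, was at 76.22, 69.99 and 69.02 with PBS and 104, 146.8 and 133.5 with leptin at ZT2. At ZT14 it was at 96.17, 131.6 and 190.6 with PBS and 44.4, 57.21 and 46.92 with leptin, so its values moved in opposite directions (difference -2.24, 0.146). The next by p were Cldn12 (1.93), Tram1 (1.30), Kcnab1 (3.17), Serp1 (1.39), Chd9 (-1.46), Sulf2 (-2.27), Rspo1 (-1.88) and Rnf165 (-1.61).

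In the floxed controls leptin raised 9 genes (0.0646%) and lowered 0 (0%), with 454 at an unadjusted p under 0.05, and edgeR called 9, all higher. The controls share no library with the knockouts, but the same fit gave both genotypes 1 estimate of spread for each gene. The calls in controls and knockouts are therefore not independent. Of the 9 genes, 8 (88.9%) were also called in the knockouts, which is 11.9% of the 67, and the ninth was Gcc1 (1.58 in controls, 1.03 in knockouts with adjusted p = 0.0948 by limma). Over all genes tested, 49.6% of differences in controls were above 0. Of the 57 genes that rose in knockouts, 52 had a difference above 0 in controls, and 35 of these had an unadjusted p under 0.05 there. Of the 10 that fell, 9 were below 0 in controls, 5 with an unadjusted p under 0.05. The median difference of the 57 was 1.69 in knockouts and 0.84 in controls. Since the 57 were chosen for their size in the knockouts, a smaller median elsewhere follows in part from the choice.

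**Figure D5:**
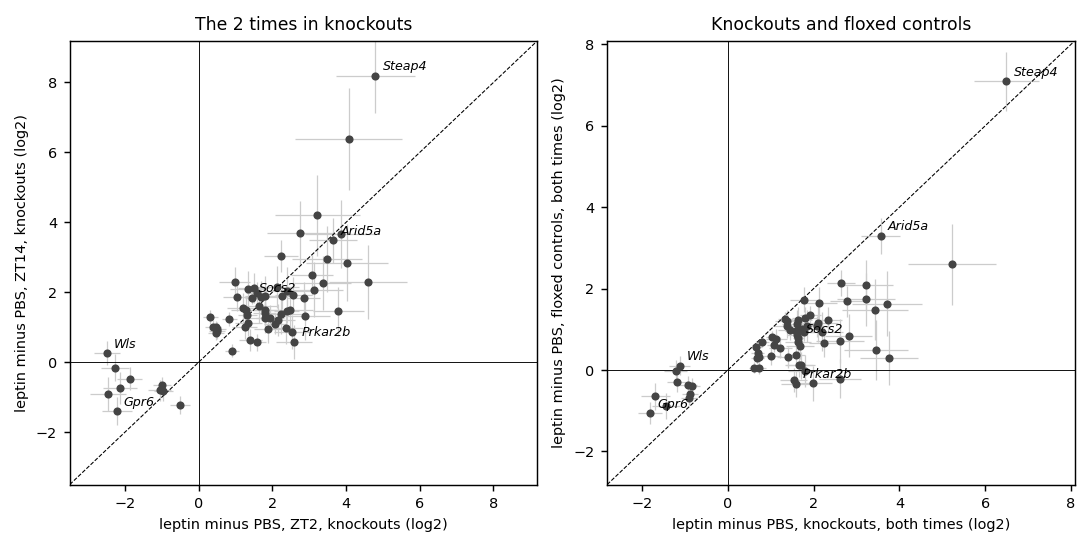
Points are the 67 genes called in the pooled knockout comparison, with bars of 1 SE, and the dashed line marks equal differences. The left panel sets the leptin difference at ZT14 (y axis, log2) against ZT2 (x axis), and the right panel that in floxed controls (y axis) against knockouts (x axis). Of the 57 genes that rose, 52 lie above 0 in the controls, and Wls lies below 0 at ZT2 and above 0 at ZT14.

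The test of the difference between genotypes found 0 genes (0%) with limma, while 651 had an unadjusted p under 0.05. edgeR found 0, DESeq2 4 and limma with library weights 37. For Arid5a the difference was 3.57 in knockouts and 3.29 in controls, and the gap of 0.27 had a 95% interval of -1.04 to 1.59. For Arid5b the gap was 0.09 (95% interval -0.42 to 0.60) and for Rnf122 0.49 (-0.44 to 1.43).

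Socs2 had the smallest p among genes with a larger rise in knockouts, 0.87 (95% interval 0.49 to 1.25, adjusted p = 0.653 by limma). With PBS, Socs2 was at 393.9 to 672.8 in knockouts and at 700.4 to 1095 in controls, which did not overlap. With leptin it was at 1464 to 1874 in knockouts and 1331 to 1554 in controls, which did. Nanos1, an RNA regulator gene, rose by 1.58 in knockouts and had a difference of 0.36 in controls, a gap of 1.22 (95% interval 0.61 to 1.82, 0.881). Prkar2b, a regulatory subunit of protein kinase A, had 1.59 and -0.33, a gap of 1.92 (0.93 to 2.91, 0.89). Tecta (1.78) and Hpgd (2.15) followed upward, and Zfp398 (-1.18), Wls (-1.23), Top3a (-1.51), Pnma3 (-0.94) and Pomt1 (-1.20) downward, none past the threshold. In the controls Agrp, Npy and Lepr had differences of -0.05, 0.04 and 0.13, none of which passed.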

How the data were processed

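The deposited table gave normalised read counts per gene (unit: signal, gene counts divided by a size factor for each library) for 23337 genes and 80 libraries. STAR 2.5.1, featureCounts, Subread, DESeq, DESeq2, R 3.5.1 and build mm10 are named, without role or order, in the submitters' processing notes. The 25 libraries of the leptin experiment were used and 55 columns were not. Whole reads were recovered from each library's value of 1 read (at least 99.99% whole within 0.1 read), with 5.93 to 33.98 M per library. Genes reaching 10 in 3 or more libraries were fitted on log2(value + 1) with limma 3.58.1 (trend, R 4.3.3) and 8 group means over all 25 libraries, which share 1 estimate of spread. The Benjamini-Hochberg threshold was 0.05 over 13942 genes. Rows whose symbol had turned into a date, 1 of them among the 57 genes that rose, were tested but are not named. edgeR 4.0.16 and DESeq2 1.42.0 on the recovered reads were alternatives. Named genes were the 15 per direction of largest called difference at a mean log2 value of at least 5, filled by smallest p, 5 per direction in other comparisons, Agrp, Npy, Lepr, Socs3, Stat3 and Arntl, members of the JAK-STAT, SOCS and STAT3 target lists, and the members of other lists that were called, or otherwise the 3 of smallest p. The comparison, genes and lists were chosen with earlier results of these data known. Promoter sequences and positions are from RefSeq, GRCm38.p6. Some genes that the rule names are not reported here.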

Additional observations from a re-analysis of the deposited data

Results flagged for a closer look

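Among 72 groups of 6 knockout libraries checked for a value standing apart by Dixon's test, 1 was found, and chance gives about 1 in 20. Adam9 was at 17.25 in PBS ZT2 collection 4, while the other 5 PBS libraries lay between 82.92 and 185.6, and this gap was 0.656 of the whole range on the log2 scale. Without that library Adam9 was still called.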

How the results depend on the processing

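Counts of called genes that moved by over 1.5 times are given here, and the cause was not tested. In the pooled knockout comparison (67 genes) the 12 knockout libraries alone gave 29, DESeq2 164, library weights 205, the fit without PBS ZT2 collection 4 and PBS ZT14 collection 1 27, and that without leptin ZT2 collection 3 as well 32. These last 2 alternatives were chosen after seeing the data. At ZT2 (59 genes) DESeq2 gave 150, library weights 620, and the 2 fits without doubted libraries 6 and 0. At ZT14 (12 genes) DESeq2 gave 43. For the difference between times (0 genes) DESeq2 gave 18 and library weights 27. For the controls (9 genes) DESeq2 gave 45, library weights 287 and depth as a covariate 4. For the difference between genotypes (0 genes) DESeq2 gave 4 and library weights 37. Leaving out 1 library gave 36 to 86 genes pooled, 6 to 106 at ZT2, 2 to 10 at ZT14 and 6 to 13 in controls, and 0 in each leave-out for both tests of differences. TMM, quantile normalization, both pseudocounts, both filters and edgeR kept all 6 counts within 1.5 times. No named gene reversed its sign with a call in either fit. Of the 67 calls 18 were kept in all alternatives and 49 lost in at least 1, and of 117 other genes followed 17 passed in at least 1. The fit with a replicate block gave 60 genes pooled, and the same-numbered libraries did not pair, with correlations of deviations from -0.19 to 0.15. With 3 libraries per group and time, differences near the median SE of 0.368 at 1 time were not detectable.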
